A study of Mus musculus with 9 samples.

Results

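The genes of the TGF-beta, BMP and activin signalling pathways were followed in cultured mouse hepatic stellate cells of 3 genotypes. They were taken by symbol from the deposited gene table: BMP and GDF ligands, the inhibin beta subunits, TGF-beta ligands, their receptors, SMADs, latent TGF-beta binding proteins, secreted antagonists such as gremlin 1, follistatins, ID genes, endoglin, Bambi and noggin. The rule found 43 of 14020 genes. Testing needed 3 or more libraries at 10 or above, which 32 of the 43 reached and 11 did not. The label held for most of the list, but 3 genes carry the name with other main roles: Bmp1, a secreted protease, Bmp2k, a kinase named for its induction by BMP2, and Tgfbrap1, a trafficking protein.

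RNA was sequenced from 9 libraries in 3 groups of 3. The first group was wild type (WT), the second carried a knock-out of Sqstm1 (Sqstm1 KO), which encodes the autophagy receptor p62, and the third was labelled as a double knock-out of Nbr1, a related receptor, and Sqstm1 (DKO). Stellate cells, liver pericytes that store vitamin A, had been kept for 4 days in DMEM with fetal bovine serum and had no other treatment. The sources used here give no age, strain or knock-out design, and do not say whether the libraries of a group came from separate animals. The series text mentions biological replicates and an Nbr1 knock-out. The p-values below thus rest on the spread among these samples, which may be technical.

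TGF-beta, activin and BMP ligands are secreted dimers that bind pairs of type I and type II receptor kinases. TGF-beta and activin receptors phosphorylate SMAD2 and SMAD3, BMP receptors phosphorylate SMAD1, SMAD5 and SMAD9, and both groups act with SMAD4, while SMAD6 and SMAD7 inhibit. Latent TGF-beta binding proteins hold TGF-beta in the matrix, and gremlin 1 and follistatins bind ligands outside the cell. In the liver, TGF-beta drives stellate cells to become contractile, collagen-producing myofibroblasts.

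Each library held 819677 to 1467793 counted reads, of which 1691 to 4102 fell on the 43 genes. Values are normalized counts, reads divided by a size factor per library, so that 1 read was worth 0.606 to 1.36. Sqstm1 KO replicate 3 stood apart, with reads on 12673 genes and 18.5% of its reads on 10 genes. Sqstm1 itself averaged 240 ± 16.1 in WT, 52.8 ± 29.8 in Sqstm1 KO and 45.7 ± 17.7 in DKO (normalized count, mean ± SD, n = 3 here and below), and was called lower than WT in both (adjusted p = 0.0023 and 0.00116). Nbr1 stood at 101 ± 7.64, 78.9 ± 8.85 and 90.7 ± 17.5 with no call, so its RNA did not check the label of the third group. Genes of the Y chromosome (Uty, Ddx3y, Kdm5d and Eif2s3y) had reads in every WT and DKO library and none in Sqstm1 KO, and this difference cannot be told apart from genotype. WT and DKO were not alike in all of them. Eif2s3y was called lower in DKO by limma (60.6 to 72.2 in WT and 5.74 to 29.3 in DKO, adjusted p = 0.0162). Ddx3y was lower in DKO without overlap and not called, while Kdm5d and Uty overlapped. Of stellate markers, 10 of 19 had values, with sums of 1132 to 1310 in WT, 1662 to 3135 in Sqstm1 KO and 2375 to 4462 in DKO. Des, Lrat and Reln were among those not analysed here. Col1a1, the largest of the 10, was at 714 to 783, 932 to 2475 and 895 to 3192 in the same order. Col1a1 and Col3a1 are also TGF-beta targets. The markers did not move together: between Sqstm1 KO and WT, Dcn, Hand2 and Col3a1 were called higher, Angptl6 lower and the other 6 not. Vascular smooth muscle markers (6 of 8 with values, without Myh11) summed to 215 to 237, 1261 to 1750 and 634 to 952, and 3 of these, Acta2, Tagln and Cnn1, are also TGF-beta targets. Hepatocyte markers (11) and lymphocyte and neutrophil markers (10) had no values, and macrophage markers (4 of 15) summed to 20.3 to 35.4, 8.68 to 12.3 and 14.3 to 29.3. Of the macrophage markers only Cd14 was tested, at 14.6 to 21.8, 0 to 3.06 and 6.85 to 17.8. It was called lower in Sqstm1 KO than in WT and higher in DKO than in Sqstm1 KO. Cd68, Csf1r and Mpeg1 were under the filter and overlapped between WT and Sqstm1 KO. Cholangiocyte markers (2 of 8) summed to 16.3 to 26.4, 29.2 to 34.7 and 25.8 to 49.1, and portal fibroblast and mesothelial markers (5 of 15) to 206 to 244, 242 to 435 and 325 to 335. The largest of these 5, Fbln2, was at 170 to 223, 225 to 420 and 294 to 298, with no call. Igfbp6 went another way than the sum, at 19.4 to 30.0, 0 to 4.87 and 7.99 to 15.3. It was called lower in Sqstm1 KO than in WT and higher in DKO than in Sqstm1 KO. Cd34 was called higher in DKO than in WT (11.4 to 17.2 against 0.606 to 4.09). The part of these differences in the results was not tested, and in bulk RNA fewer cells of a type and less RNA per cell cannot be told apart.

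The activin subunit gene Inhba was higher in Sqstm1 KO than in WT, while the BMP antagonist gene Grem1 and the co-receptor gene Tgfbr3 were lower. All 3 were also called between DKO and Sqstm1 KO, in the opposite direction. The Y-chromosome genes set the same group apart from the others. For these 3 genes, and for every other call in a comparison with Sqstm1 KO, that difference cannot be told apart from genotype. No SMAD, ID or TGF-beta ligand gene was called in any of the 3 comparisons. Only 6 of 8 SMAD, 2 of 4 ID and 2 of 3 TGF-beta ligand genes passed the filter. Whether these groups of genes differ from the others was not tested.

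A gene was called when its adjusted p from limma, over all 10118 genes tested, was under 0.05. Between Sqstm1 KO and WT, 6 of the 32 tested genes were called (18.8%), against 5.61% of all tested genes: 4 were higher (among them Inhba, Gdf1 and Eng, background 2.43%) and 2 lower (Tgfbr3 and Grem1, background 3.18%). Between DKO and Sqstm1 KO, 5 were called (15.6%, background 5.93%): Tgfbr3, Ltbp2, Grem1 and Bmp1 were higher (background 4.42%) and Inhba lower (background 1.51%). Between DKO and WT, 5 were called (15.6%, background 6.42%): 4 were higher (among them Eng, Ltbp2 and Bmp1, background 4.11%) and Ltbp1 lower (background 2.31%). In all, 9 genes had 16 calls among 96 tested pairs of gene and comparison, and 23 tested genes had none. The comparisons share groups, so their calls are not independent of each other. Tgfb2, Bmpr1b and Smad1, among others, reached 10 in no WT library and Tgfbr3 in no Sqstm1 KO library, so the filter passed them only through the groups where they were higher, and these counts support nothing on their own.

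The median log2 fold change of the 32 genes was -0.01 for Sqstm1 KO against WT, 0.06 for DKO against Sqstm1 KO and 0.14 for DKO against WT, beside -0.01, -0.01 and -0.02 over all genes tested. Libraries of the 2 groups did not overlap for 13 of the 32 genes between Sqstm1 KO and WT (26% of all tested genes), for 9 between DKO and Sqstm1 KO (21%) and for 15 between DKO and WT (31.2%).

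**Figure D1:**
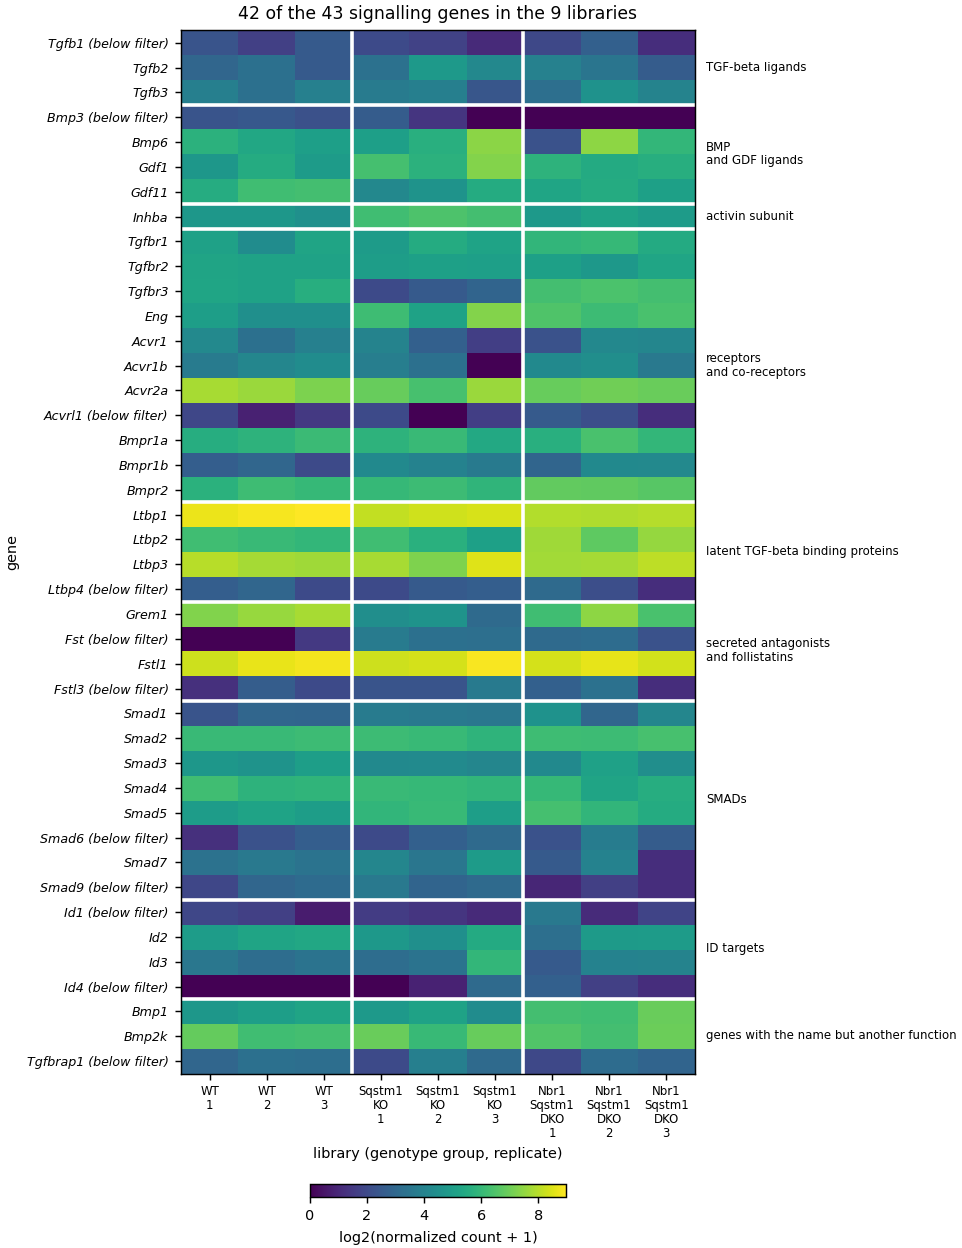
Log2 of the normalized count plus 1 for 42 of the 43 genes (rows, grouped by role) in each of the 9 libraries (columns), with the 11 genes under the filter marked. Tgfbr3 and Grem1 are darkest in the 3 Sqstm1 KO libraries, and the rows of Smad2 and Tgfbr2 keep nearly 1 shade across all 9.

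Inhba encodes the beta A subunit that forms activin A. It was at 25.9, 25.6 and 21.8 normalized counts in WT, 74.5, 87.7 and 77.0 in Sqstm1 KO, and 27.7, 35.4 and 29.3 in DKO. Every Sqstm1 KO library was above every other library, and the lowest DKO library was just above the highest WT one. The log2 fold change was 1.67 (SE 0.27, adjusted p = 0.00173) for Sqstm1 KO against WT and -1.35 (SE 0.27, adjusted p = 0.00675) for DKO against Sqstm1 KO. DKO against WT gave 0.32 (95% interval -0.25 to 0.89, adjusted p = 0.529), with no call. Both calls held in the 21 alternatives run.

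Of the called genes, 6 have a RefSeq promoter entry, and 4 are shown here as the 250 bases before the annotated start (build GRCm38.p6). Inhba and Grem1 are printed because their calls held in every alternative run while they moved in opposite directions, and Eng and Ltbp2 because their annotated exons overlap those of a gene on the opposite strand, as described below. Capitals mark CAGAC or its reverse complement GTCTG, the core of the element that SMAD3 and SMAD4 bind, and GGCGCC, a GC-rich element of SMAD1 and SMAD5. Both strands were searched, and neither motif overlaps the other.
Inhba, chr13:16011601-16011850, plus strand: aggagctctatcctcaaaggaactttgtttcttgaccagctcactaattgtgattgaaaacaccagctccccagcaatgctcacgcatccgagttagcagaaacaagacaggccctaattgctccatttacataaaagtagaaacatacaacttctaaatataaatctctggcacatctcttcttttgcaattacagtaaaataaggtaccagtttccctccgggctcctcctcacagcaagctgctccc
Grem1, chr2:113758649-113758898, minus strand: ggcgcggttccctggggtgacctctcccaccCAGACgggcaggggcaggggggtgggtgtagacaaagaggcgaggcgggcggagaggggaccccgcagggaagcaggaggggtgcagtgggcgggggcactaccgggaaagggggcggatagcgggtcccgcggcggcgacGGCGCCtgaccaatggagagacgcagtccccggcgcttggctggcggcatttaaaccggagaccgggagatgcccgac
Eng, chr2:32646345-32646594, plus strand: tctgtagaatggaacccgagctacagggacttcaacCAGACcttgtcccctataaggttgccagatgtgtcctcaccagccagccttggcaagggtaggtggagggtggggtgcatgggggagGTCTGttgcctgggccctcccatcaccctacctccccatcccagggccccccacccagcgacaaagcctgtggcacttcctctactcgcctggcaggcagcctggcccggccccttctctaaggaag
Ltbp2, chr12:84876492-84876741, minus strand: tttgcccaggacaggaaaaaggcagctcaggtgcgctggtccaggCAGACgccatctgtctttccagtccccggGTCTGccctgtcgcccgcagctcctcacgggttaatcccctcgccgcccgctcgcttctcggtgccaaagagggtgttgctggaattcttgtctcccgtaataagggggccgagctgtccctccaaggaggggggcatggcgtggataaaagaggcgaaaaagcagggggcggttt
The Inhba window held neither motif, that of Grem1 held 1 CAGAC and 1 GGCGCC, and those of Eng and Ltbp2 held 2 of the CAGAC or GTCTG motif each. CAGAC was found in 42.2% of 32851 RefSeq windows of this length and in 19 of the 42 windows of the 32 signalling genes with an entry (45.2%). GGCGCC was found in 9.59% of windows and in 13 of these 42 (31%). A match describes these letters only, and no test was made.

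The TGF-beta ligand genes were low throughout. Tgfb2 was at 6.81, 9.04 and 4.85 in WT, 9.19, 27.6 and 17.4 in Sqstm1 KO, and 14.3, 10.3 and 5.09 in DKO. The Sqstm1 KO libraries were all above WT, but the log2 fold change of 1.18 (95% interval 0.10 to 2.26) had an adjusted p of 0.214. Tgfb3 ranged from 4.34 to 22.8, with overlapping groups in each comparison. Tgfb1 was under the filter, at 1.08 to 5.71, with 14 reads over the WT libraries, 7 over Sqstm1 KO and 9 over DKO. With no filter on low values, Sqstm1 KO against WT gave -0.58 (SE 0.62, adjusted p = 0.682) for Tgfb1, with no call. By limma 0 of the 2 tested ligand genes were called in any comparison, as by edgeR and DESeq2. Tgfb2 between Sqstm1 KO and WT was the 1 with an unadjusted p under 0.05, as had 19.4% of all tested genes.

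Among the BMP and GDF ligands, Gdf1, a nodal-related ligand gene, was called. It was at 25.9, 45.2 and 29.7 in WT, 79.6, 53.6 and 158 in Sqstm1 KO, and 54.5, 43.4 and 48.4 in DKO. Sqstm1 KO was above WT in all 3 libraries and replicate 3 stood far above its group, while DKO overlapped both groups. Sqstm1 KO against WT gave a log2 fold change of 1.40 (SE 0.37, adjusted p = 0.0395). Leaving out a library ended the call for WT replicate 1 (adjusted p = 0.171), 2 (0.0631) or 3 (0.139), Sqstm1 KO replicate 1 (0.0688) or 3 (0.0705), and DKO replicate 3 (0.0652). Gdf1 shares exons with Cers1 on its own strand and with Upf1 on the other, so the source of its reads is uncertain.

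Gdf11, a ligand of activin-type receptors, was at 46.3, 73.1 and 77.0 in WT, 17.4, 23.5 and 44.5 in Sqstm1 KO, and 37.3, 44.5 and 33.1 in DKO. All WT libraries were above all others. Sqstm1 KO against WT just missed the threshold (log2 fold change -1.25, SE 0.35, adjusted p = 0.056) and passed it with edgeR (0.0394), with DESeq2 (0.032) and without Sqstm1 KO replicate 3 (0.00393). Bmp6, an iron-regulated ligand of the liver, spread more within groups than between them, from 32.1 to 53.1 in WT, 32.7 to 170 in Sqstm1 KO and 3.82 to 176 in DKO, with no call. Bmp3 had 15 reads over the WT libraries, 7 over Sqstm1 KO and none over DKO, and was not tested in the main model. The floor of 3 reads over the DKO libraries was a mean of 1.11. The WT mean of 4.08, taken without its own counting error, was at least 3.68-fold higher. With no filter on low values, limma gave -2.34 (SE 0.72, adjusted p = 0.0735) for Bmp3 in DKO against WT, with no call.

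Among the receptor genes, the co-receptor genes Tgfbr3 and Eng were called and no kinase receptor gene was, a difference that was not itself tested. Tgfbr3 encodes betaglycan, which presents TGF-beta2 to its receptors and binds inhibin. It was at 38.1, 35.4 and 48.5 in WT, 3.06, 4.87 and 6.51 in Sqstm1 KO, and 77.5, 84.5 and 77.7 in DKO. The 3 groups did not overlap: Sqstm1 KO was lowest, from 15 reads in all, and DKO highest. The log2 fold change was -2.87 (SE 0.32, adjusted p = 9.44e-05) for Sqstm1 KO against WT and 3.84 (SE 0.32, adjusted p = 6.46e-06) for DKO against Sqstm1 KO, and both calls held in the 21 alternatives run. For DKO against WT it was 0.97 (95% interval 0.28 to 1.66, adjusted p = 0.0949), which edgeR (0.0441) and DESeq2 (0.0423) called, as did limma without Sqstm1 KO replicate 3 (0.0295).

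Eng encodes endoglin, a co-receptor for BMP9 and TGF-beta that is abundant in endothelium and in activated stellate cells. It was at 31.3, 21.1 and 21.2 in WT, 72.5, 34.9 and 159 in Sqstm1 KO, and 89.9, 69.6 and 84.1 in DKO. All 6 knock-out libraries were above all WT libraries, and the Sqstm1 KO libraries spread around those of DKO. Against WT the log2 fold change was 1.58 (SE 0.43, adjusted p = 0.0445) in Sqstm1 KO and 1.70 (SE 0.43, adjusted p = 0.0273) in DKO. The first call held among single-library omissions only without Sqstm1 KO replicate 2, and was lost without WT replicate 1 (0.0916), 2 (0.176) or 3 (0.154), Sqstm1 KO replicate 1 (0.0866) or 3 (0.0734), and DKO replicate 1 (0.0589), 2 (0.0584) or 3 (0.0758). The second was lost without WT replicate 1 (0.054), 2 (0.121) or 3 (0.121), or DKO replicate 1 (0.105), 2 (0.0515) or 3 (0.115). Endothelial markers had values for 3 of 16 genes (Stab1, Stab2 and Flt1), which summed to 91.0 to 109 in WT, 64.1 to 197 in Sqstm1 KO and 103 to 198 in DKO, and Pecam1, Cdh5 and Kdr were not analysed here. These 3 genes did not move together, and none was called. Flt1 was lower in both knock-out groups without overlap (19.1 to 24.9 in WT, 6.51 to 11.2 in Sqstm1 KO and 6.37 to 10.5 in DKO). Stab1 was at 60.6 to 73.1, 51.1 to 189 and 89.9 to 178 in the same order, with DKO above WT without overlap. Stab2 was at 9.70 to 16.3, 2.17 to 8.17 and 2.87 to 12.6. The part of endothelial RNA in the Eng result was not tested.

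The kinase receptors gave 0 calls by limma. Tgfbr2, the type II TGF-beta receptor gene, was at 35.2 to 36.8 in WT, 30.6 to 33.3 in Sqstm1 KO and 26.3 to 38.2 in DKO, with a log2 fold change for Sqstm1 KO against WT of -0.15 (95% interval -0.74 to 0.44). Tgfbr1, its type I partner, was at 19.6 to 36.4, 29.6 to 45.4 and 43.3 to 62.8 in these groups. DKO was above WT in all 3 libraries for Tgfbr1, by 0.89 (95% interval 0.20 to 1.57, adjusted p = 0.123).

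Bmpr2, the type II BMP receptor gene, was at 51.8 to 71.6 in WT, 57.5 to 69.8 in Sqstm1 KO and 99.3 to 112 in DKO. DKO was above both other groups without overlap, by 0.78 against WT (SE 0.24, adjusted p = 0.0768), a difference called without Sqstm1 KO replicate 3 (0.0259). Bmpr1a, a type I receptor gene, overlapped in all comparisons (41.2 to 83.3 over the 9 libraries). Bmpr1b was at 3.03 to 6.78 in WT, 11.9 to 18.4 in Sqstm1 KO and 6.69 to 18.3 in DKO (Sqstm1 KO against WT 1.42, 95% interval 0.39 to 2.46, adjusted p = 0.11).

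Acvr2a, the activin type II receptor gene, was at 148 to 223 in WT, 80.3 to 196 in Sqstm1 KO and 119 to 130 in DKO. Without Sqstm1 KO replicate 3, the highest of its group, it was called lower in Sqstm1 KO than in WT (log2 fold change -0.93, adjusted p = 0.0339). The type I receptor genes Acvr1 and Acvr1b had 24 reads each over the Sqstm1 KO libraries and overlapped between all groups. Acvrl1, the type I receptor gene for BMP9 in endothelium, was under the filter at 0 to 4.78. At an unadjusted p under 0.05 the kinase receptors gave 2 genes between Sqstm1 KO and WT (Acvr1b and Bmpr1b, background 19.4%). They gave 2 between DKO and Sqstm1 KO (Acvr1b and Bmpr2, background 18.8%) and 3 between DKO and WT (Tgfbr1, Bmpr1b and Bmpr2, background 21.4%). By edgeR and DESeq2 none of them was called. With quantile normalization limma called Bmpr1b between Sqstm1 KO and WT (adjusted p = 0.0482), and with only the 2 groups fitted it called Bmpr2 between DKO and WT (0.0364).

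**Figure D2:**
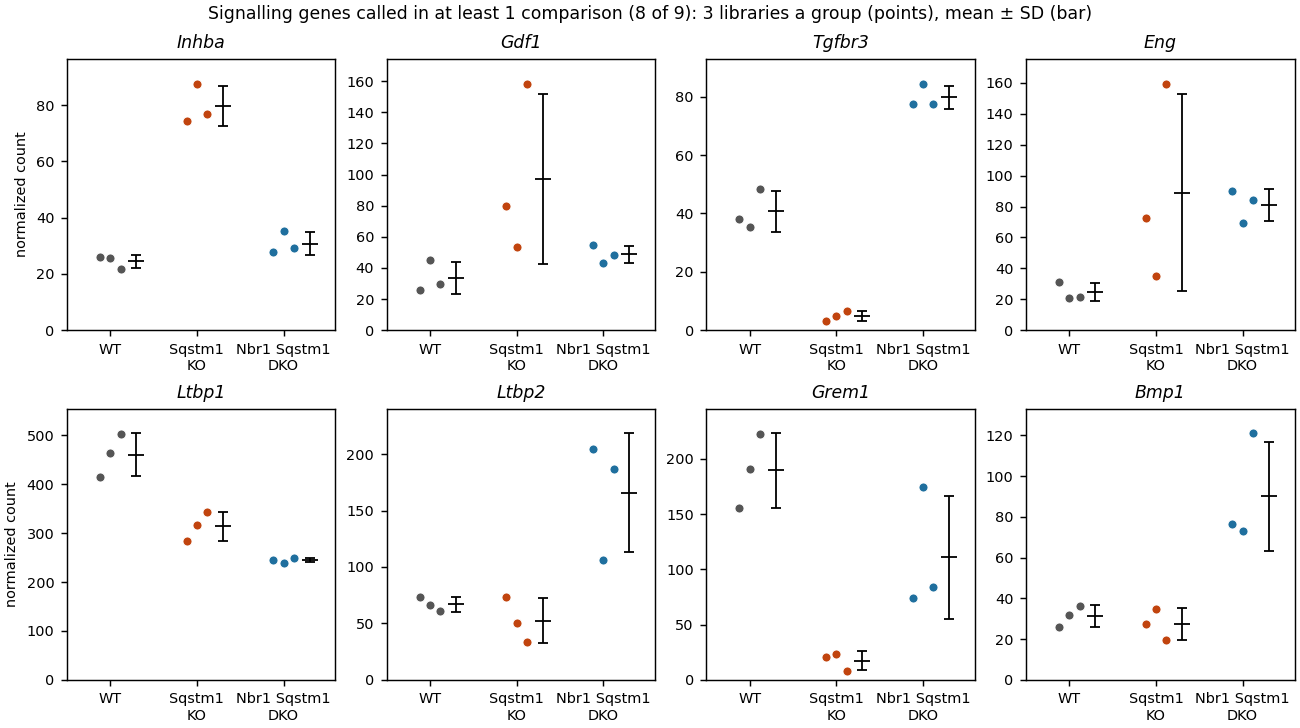
Normalized counts of 8 of the 9 genes called in at least 1 comparison, with a point for each of the 3 libraries a group and a bar for mean ± SD. Inhba is high only in Sqstm1 KO among the 3 groups (74.5 to 87.7), Tgfbr3 and Grem1 are low there (3.06 to 6.51 and 7.59 to 23.5), and Ltbp2 and Bmp1 are highest in DKO (106 to 205 and 73.1 to 121).

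Latent TGF-beta binding proteins tie the latent complex to fibrillin and fibronectin in the matrix. Ltbp1 was at 415, 465 and 502 in WT, 284, 317 and 343 in Sqstm1 KO, and 245, 240 and 248 in DKO. The 3 groups did not overlap, with WT highest and DKO lowest. DKO was below WT by a log2 fold change of -0.91 (SE 0.23, adjusted p = 0.0267), and Sqstm1 KO against WT gave -0.55 (95% interval -1.03 to -0.07, adjusted p = 0.194). The DKO call was lost without WT replicate 1 (0.0516), 2 (0.146) or 3 (0.134) and without DKO replicate 1 (0.0908), 2 (0.073) or 3 (0.114).

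Ltbp2, a matrix member of the family that does not bind TGF-beta, went the other way in DKO. It was at 73.5, 66.3 and 60.6 in WT, 73.5, 50.3 and 33.6 in Sqstm1 KO, and 205, 106 and 187 in DKO. All DKO libraries were above all others, and WT and Sqstm1 KO overlapped. The log2 fold change was 1.66 (SE 0.33, adjusted p = 0.00675) for DKO against Sqstm1 KO and 1.25 (SE 0.33, adjusted p = 0.0342) for DKO against WT. The first call was lost without DKO replicate 3 (0.0567), and the second without WT replicate 1 (0.0803), 2 (0.134) or 3 (0.143) or DKO replicate 1 (0.147) or 3 (0.163). Ltbp3 ranged from 151 to 373 and overlapped in all comparisons, with a log2 fold change of DKO against WT of 0.03 (95% interval -0.62 to 0.68). Ltbp4 was under the filter at 1.27 to 7.65. Between Sqstm1 KO and WT limma, edgeR and DESeq2 called 0 of the 3 tested genes, and Ltbp1 had an unadjusted p under 0.05 (background 19.4%).

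Grem1 encodes gremlin 1, which binds and blocks BMPs. It was at 155, 191 and 223 in WT, 20.4, 23.5 and 7.59 in Sqstm1 KO, and 73.6, 175 and 84.1 in DKO. Sqstm1 KO was below every other library, and DKO reached into the WT range through replicate 2. The log2 fold change was -3.51 (SE 0.41, adjusted p = 0.000134) for Sqstm1 KO against WT and 2.65 (SE 0.41, adjusted p = 0.00112) for DKO against Sqstm1 KO. DKO against WT gave -0.86 (95% interval -1.74 to 0.01, adjusted p = 0.241). Both calls of Grem1 held in the 21 alternatives run.

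Fst, which encodes follistatin, the activin-binding protein, was under the filter. It had 0, 0 and 1.82 normalized counts in WT (3 reads), 12.3, 8.93 and 8.68 in Sqstm1 KO (31 reads), and 7.65, 7.99 and 3.82 in DKO (18 reads). All knock-out libraries were above all WT libraries. With no filter on low values Fst was called against WT in Sqstm1 KO (adjusted p = 0.00796) and in DKO (adjusted p = 0.0283). Fstl1, a secreted glycoprotein of the follistatin family, ranged from 309 to 477 with all groups overlapping (Sqstm1 KO against WT -0.05, 95% interval -0.61 to 0.50). Fstl3, an inhibitor of activin, was under the filter at 1.27 to 11.9.

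The SMAD genes gave 0 calls by limma, edgeR and DESeq2 in the 3 comparisons among the 6 tested. At an unadjusted p under 0.05 they gave 0 genes between Sqstm1 KO and WT (background 19.4%). There were 1 between DKO and Sqstm1 KO (Smad7, background 18.8%) and 2 between DKO and WT (Smad1 and Smad5, background 21.4%). Smad2, a mediator of TGF-beta and activin, was at 66.3 to 70.3 in WT, 56.4 to 69.4 in Sqstm1 KO and 70.8 to 81.5 in DKO. Its log2 fold change for Sqstm1 KO against WT was -0.09 (95% interval -0.60 to 0.42), so that a change of more than 0.60 in either direction lay outside the interval. Smad3, the other mediator, was at 23.4 to 31.5 in WT, 16.3 to 18.7 in Sqstm1 KO and 18.2 to 34.3 in DKO. Sqstm1 KO was below WT without overlap for Smad3, by -0.56 (95% interval -1.28 to 0.15, adjusted p = 0.385). Smad4, the shared partner, ranged from 36.5 to 73.5, and all groups overlapped.

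Of the BMP mediators, Smad1 was at 4.09 to 6.78 in WT, 10.8 to 12.3 in Sqstm1 KO and 6.85 to 22.9 in DKO. Both knock-out groups were above WT without overlap (DKO against WT 1.15, 95% interval 0.13 to 2.17, adjusted p = 0.177). Smad5 was at 30.0 to 36.2, 31.5 to 64.9 and 44.6 to 79.4 in the same order, and was called higher in DKO than in WT only when Sqstm1 KO replicate 3 was left out (adjusted p = 0.0358, 0.143 with it). Smad9 was under the filter, with 24 reads over WT, 26 over Sqstm1 KO and 4 over DKO, at 2.72 to 7.88, 6.49 to 11.2 and 0.956 to 2.28. Its DKO libraries were below all others (DKO against Sqstm1 KO adjusted p = 0.0587 with no filter).

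The inhibitory SMAD genes are themselves induced by the pathway. Smad7 was at 9.53 to 11.3 in WT, 10.6 to 29.3 in Sqstm1 KO and 1.27 to 14.8 in DKO, with groups overlapping throughout. DKO against Sqstm1 KO gave -1.62 (95% interval -2.95 to -0.29, adjusted p = 0.169) and was called without DKO replicate 2 (0.0412). Smad6 was under the filter at 1.36 to 12.6.

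The ID genes, direct BMP targets that encode inhibitors of helix-loop-helix factors, gave 0 calls by limma, edgeR and DESeq2 and no unadjusted p under 0.05. Id2 was at 30.0 to 40.6 in WT, 21.1 to 43.4 in Sqstm1 KO and 8.61 to 29.3 in DKO. The DKO libraries were all below WT, by -0.84 (95% interval -1.77 to 0.10, adjusted p = 0.291). Id3 was at 8.29 to 10.9, 8.17 to 60.7 and 4.78 to 15.3, and the 60.7 was that of Sqstm1 KO replicate 3. Id1 and Id4 were under the filter, with 6, 5 and 15 reads of Id1 over the WT, Sqstm1 KO and DKO libraries and no read of Id4 in WT. The 2 tested ID genes had wide intervals, and for Id3 in Sqstm1 KO against WT it ran from -0.60 to 2.18.

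**Figure D3:**
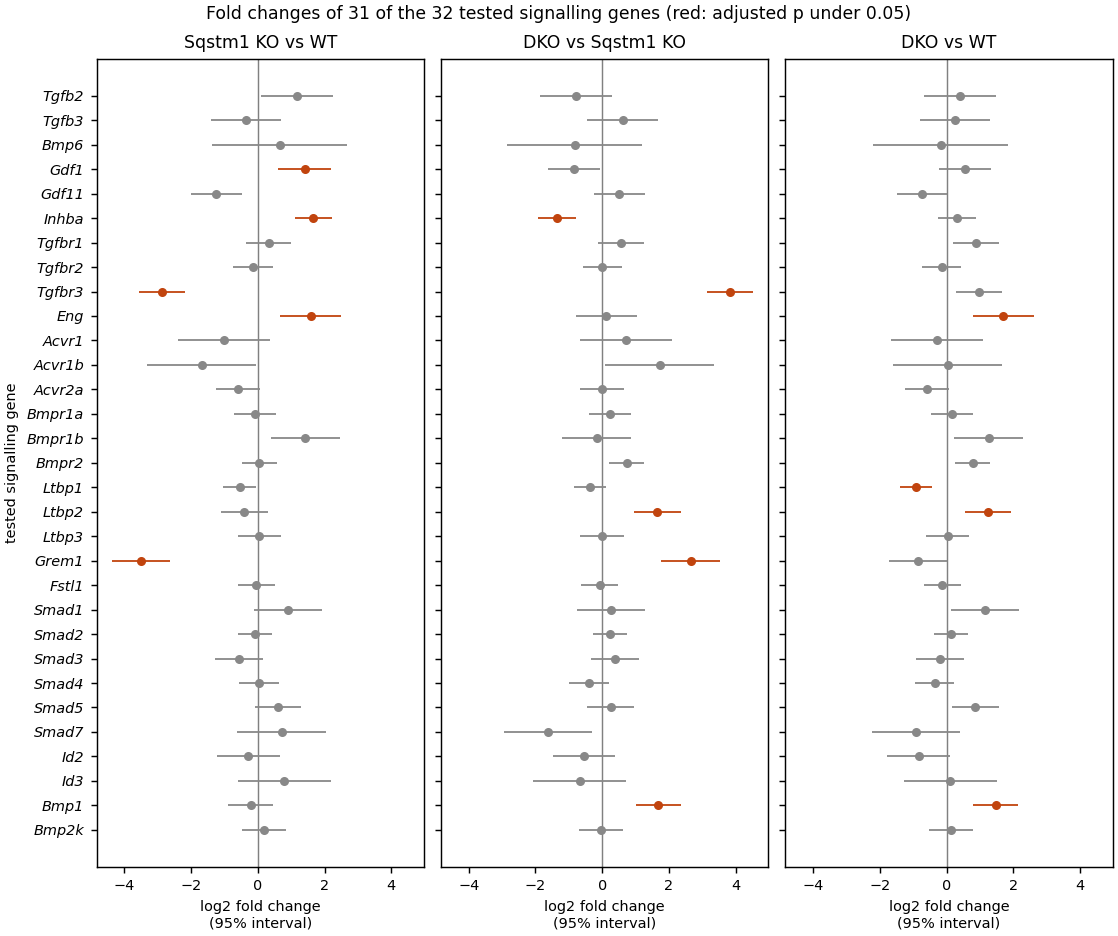
Log2 fold changes of 31 of the 32 tested genes, ordered by role, with 95% intervals in the 3 comparisons and called genes in red. The SMAD and ID rows are grey in all 3 panels, and the points farthest from 0 are Tgfbr3 (3.84) in DKO against Sqstm1 KO and Grem1 (-3.51) in Sqstm1 KO against WT.

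Of the 3 genes that carry the name only, Bmp1 encodes the procollagen C-proteinase, which trims fibrillar collagens and also cleaves LTBP1. It was at 25.9, 31.6 and 36.4 in WT, 27.6, 34.9 and 19.5 in Sqstm1 KO, and 76.5, 73.1 and 121 in DKO. All DKO libraries were above all others, and WT and Sqstm1 KO overlapped. The log2 fold change was 1.69 (SE 0.31, adjusted p = 0.00474) for DKO against Sqstm1 KO, held in the 21 alternatives run, and 1.47 (SE 0.31, adjusted p = 0.0115) for DKO against WT. The latter was lost without WT replicate 1 (0.0566) or 2 (0.0563) or DKO replicate 3 (0.0845). Bmp2k ranged from 65.7 to 124 and Tgfbrap1, under the filter, from 2.87 to 13.8, with groups overlapping.

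Leaving out Sqstm1 KO replicate 3 gave 6 called genes between Sqstm1 KO and WT, 5 between DKO and Sqstm1 KO and 8 between DKO and WT. Of the main calls, 4, 5 and 5 were among them, and those lost were Eng and Gdf1. The count for DKO against WT was the least steady of the 3. It was 1 without WT replicate 1 or 2 or DKO replicate 3, 2 without WT replicate 3 or DKO replicate 1, and 3 without DKO replicate 2.

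Strand bears on some of these values. The sources used here name neither the library kit nor whether reads were counted by strand. Without strand, reads of a gene and of a gene on the opposite strand cannot be told apart. By an annotation of the earlier build GRCm38, exons of 15 of the 43 genes (34.9%) and of 10 of the 32 tested ones (31.2%) overlap exons of a gene on the opposite strand, against 39.8% of 9119 tested genes that could be matched. Inhba, Tgfbr3, Grem1, Bmp1 and Ltbp1 have no such overlap. Eng, Gdf1 and Ltbp2 do. With genes of this kind left out of the model, these 3 could not be called and 22 signalling genes were tested. Of the 22, 5, 4 and 3 were called in Sqstm1 KO against WT, DKO against Sqstm1 KO and DKO against WT.

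The partner of Ltbp2 is D030025P21Rik, which was at 168, 120 and 96.4 normalized counts in WT, 178, 139 and 36.9 in Sqstm1 KO, and 667, 332 and 572 in DKO. It was called in the same 2 comparisons as Ltbp2, by 2.36 (SE 0.47, adjusted p = 0.00767) and 2.003 (SE 0.47, adjusted p = 0.021), and in both genes DKO replicate 2 was the lowest of its group. The source of the Ltbp2 reads is therefore uncertain. Fpgs, the partner of Eng, was at 3.64 to 15.0 in WT, 10.6 to 13.0 in Sqstm1 KO and 5.09 to 17.2 in DKO. Upf1, that of Gdf1, was at 26.7 to 36.8, 41.9 to 64.0 and 35.4 to 56.4, with Sqstm1 KO above WT without overlap. In both Upf1 and Gdf1, Sqstm1 KO replicate 3 was the highest library. Prss57, the partner of Fstl3, was at 166 to 237 in WT, 411 to 716 in Sqstm1 KO and 458 to 596 in DKO, beside 1.27 to 11.9 for Fstl3 itself. Gm37804, the partner of Tgfb3, was at 152 to 225, 202 to 319 and 331 to 461, and was called higher in DKO than in WT (log2 fold change 1.11, SE 0.27, adjusted p = 0.0247), while Tgfb3 overlapped in all comparisons. These values are not per length and do not compare levels between genes.

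**Figure D4:**
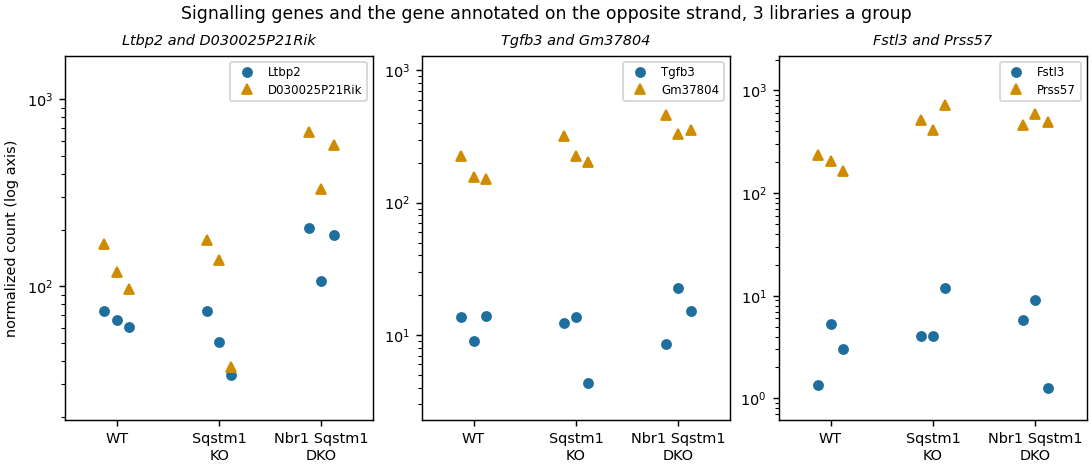
Normalized counts on a log axis of Ltbp2, Tgfb3 and Fstl3 (circles) and of the gene annotated on the opposite strand of each (triangles), with 3 libraries a group. Ltbp2 and D030025P21Rik are both highest in DKO (106 to 205 and 332 to 667), whereas Tgfb3 and Fstl3 overlap between groups and Gm37804 and Prss57 do not overlap between WT and DKO.

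Other genes of the pathway were taken from lists compiled by function. Of 14 tested extracellular regulators, Dcn, the TGF-beta-binding proteoglycan decorin, was higher and Bmper, a BMP-binding protein, lower in Sqstm1 KO than in WT, and the other 12 were not called. Dcn was at 0 to 3.01 in WT, 23.5 to 28.4 in Sqstm1 KO and 61.2 to 126 in DKO, with adjusted p = 0.000305 and 7.58e-06 against WT. Bmper was at 53.1 to 62.5, 21.7 to 31.7 and 53.5 to 82.2, so that its 3 Sqstm1 KO libraries were the lowest. The Bmper log2 fold change was -1.04 (SE 0.28, adjusted p = 0.0444) for Sqstm1 KO against WT and 1.21 (SE 0.28, adjusted p = 0.0198) for DKO against Sqstm1 KO. The first was lost without WT replicate 1 (0.113), 2 (0.204) or 3 (0.132), Sqstm1 KO replicate 1 (0.0818) or 3 (0.0664), or DKO replicate 2 (0.0539) or 3 (0.0627), and the second without DKO replicate 1 (0.0981). Between DKO and Sqstm1 KO, Bmper and Dcn were higher and Crim1, whose exons lie opposite those of Fez2, lower, and between DKO and WT 1 gene, Dcn, was called. For DKO against Sqstm1 KO the list gave 0 calls without DKO replicate 1 and 1 without DKO replicate 3. The Dcn call for DKO against Sqstm1 KO (adjusted p = 0.0407) was lost without WT replicate 3 (0.0529), Sqstm1 KO replicate 1 (0.0989) or 2 (0.0782), or DKO replicate 1 (0.0586), 2 (0.145) or 3 (0.179). For DKO against WT the Dcn call held with each library left out, and the list gave 4 calls without Sqstm1 KO replicate 3 and 1 in each other omission. Dcn was under 10 in every WT library, so the filter passed it only through the knock-out groups. The list had 14.3%, 21.4% and 7.14% of its genes called in the 3 comparisons, beside 5.61%, 5.93% and 6.42% of all tested genes.

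Of 34 tested intracellular regulators of SMAD signalling, 1 was called between Sqstm1 KO and WT (Strap, a receptor-binding inhibitor, at 83.1 to 115 in WT and 179 to 294 in Sqstm1 KO, adjusted p = 0.0349). Strap fell out of the calls without WT replicate 1 (0.155), 2 (0.139) or 3 (0.0785) or Sqstm1 KO replicate 3 (0.052). None was called by limma in the other 2 comparisons, where 6 and 5 had an unadjusted p under 0.05 (background 18.8% and 21.4%). There edgeR called 0 and 0, and DESeq2 called 1 and 0. Without Sqstm1 KO replicate 3 limma called 2 and 4. The 1 call is 2.94% of the list, below the 5.61% of all tested genes. The median log2 fold changes of these 34 genes were -0.13, -0.05 and -0.09 in the 3 comparisons. Of the other ligands and receptors of the family, 1 was tested, Lefty1, and was not called by limma, edgeR or DESeq2, with no unadjusted p under 0.05.

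Of 25 tested TGF-beta target genes, 8 (32%, background 2.43%) were higher and 0 (background 3.18%) lower in Sqstm1 KO than in WT (Acta2, Col1a2, Postn, Tagln, Timp1, Cnn1, Col3a1 and Tpm1), with a median log2 fold change of 0.55 beside -0.01 over all genes. In this list Timp1 and Cnn1 reached 10 in no WT library, and Tgfbi in no WT or Sqstm1 KO library, so the filter passed them only where they were higher and the counts of this list support nothing on their own. The Tpm1 call was lost without WT replicate 1 (0.118), 2 (0.167) or 3 (0.109), Sqstm1 KO replicate 1 (0.0853) or 2 (0.0567), or DKO replicate 3 (0.0678). Acta2, smooth muscle actin, was at 77.6 to 94.6 in WT, 632 to 918 in Sqstm1 KO and 266 to 545 in DKO. Its 3 groups did not overlap, and the log2 fold change against WT was 3.25 (SE 0.29, adjusted p = 1.62e-05) in Sqstm1 KO and 2.10 (SE 0.29, adjusted p = 0.000459) in DKO. Col1a2, a chain of type I collagen, was at 281 to 303, 1858 to 2356 and 1584 to 1966, with WT below both knock-out groups (2.84 and 2.56, adjusted p = 1.7e-05 and 3.36e-05). Tagln, which encodes the actin-binding protein transgelin, was at 93.4 to 131 in WT, 348 to 622 in Sqstm1 KO and 211 to 273 in DKO. Its exons lie opposite those of Pcsk7, a protease gene with 1774 to 2645, 11064 to 30316 and 8791 to 10922 normalized counts in these groups. Both were called higher than WT in Sqstm1 KO (log2 fold change 1.98 for Tagln and 3.11 for Pcsk7, adjusted p = 0.000573 and 0.00122) and in DKO (1.05 and 2.27, adjusted p = 0.0309 and 0.00876), so the source of the Tagln reads, here and in the smooth muscle sum, is uncertain. With genes of this kind, Tagln among them, left out of the model, 7 target genes were higher in Sqstm1 KO than in WT and 8 in DKO than in WT.

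Between DKO and Sqstm1 KO, 2 of the 25 target genes were higher (Tgfbi and Vcan, 8%, background 4.42%) and 2 lower (Tpm1 and Acta2, 8%, background 1.51%), with a median of -0.31. Tgfbi, a matrix protein gene named for its induction by TGF-beta, had 2 reads over the WT libraries and was at 2.17 to 9.74 in Sqstm1 KO and 50.9 to 61.7 in DKO, above all other libraries (adjusted p = 0.00212 against Sqstm1 KO). Vcan, which encodes the proteoglycan versican, was at 23.2 to 34.7 in WT, 6.51 to 44.6 in Sqstm1 KO and 141 to 224 in DKO (adjusted p = 0.0022). The lower call of Acta2 (-1.14, SE 0.29, adjusted p = 0.0316) was lost without WT replicate 2 (0.0666) or 3 (0.0536), Sqstm1 KO replicate 2 (0.0874), or DKO replicate 1 (0.165) or 3 (0.157). That of Tpm1 (-0.94, SE 0.23, adjusted p = 0.0232), a tropomyosin gene, was lost without WT replicate 2 (0.0626), Sqstm1 KO replicate 1 (0.0657), or DKO replicate 1 (0.113), 2 (0.0508) or 3 (0.106).

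Between DKO and WT, 9 target genes were higher (36%, background 4.11%), led by Col1a2, Tgfbi and Acta2, and 1 was lower (4%, background 2.31%). The median was 0.08 and not steady: -0.12 without DKO replicate 2 and 0.31 without WT replicate 3. On fewer genes it was 0.98 with a minimum value of 50 and 1.115 with genes overlapping on the opposite strand left out. Of 5 tested BMP target genes, Hand2, a stellate transcription factor gene, was higher than WT in Sqstm1 KO (13.9 to 28.6 in WT, 54.4 to 138 in Sqstm1 KO, adjusted p = 0.00578) and in DKO (50.2 to 54.8, adjusted p = 0.0282). Its exons lie opposite those of Hand2os1. The DKO call was lost without WT replicate 2 (0.145) or 3 (0.138) or DKO replicate 1 (0.0937), 2 (0.0598) or 3 (0.114). The other 4 were not called. Between DKO and Sqstm1 KO limma called 0 of the 5, with 2 at an unadjusted p under 0.05 (background 18.8%), and edgeR and DESeq2 called 0.

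**Figure D5:**
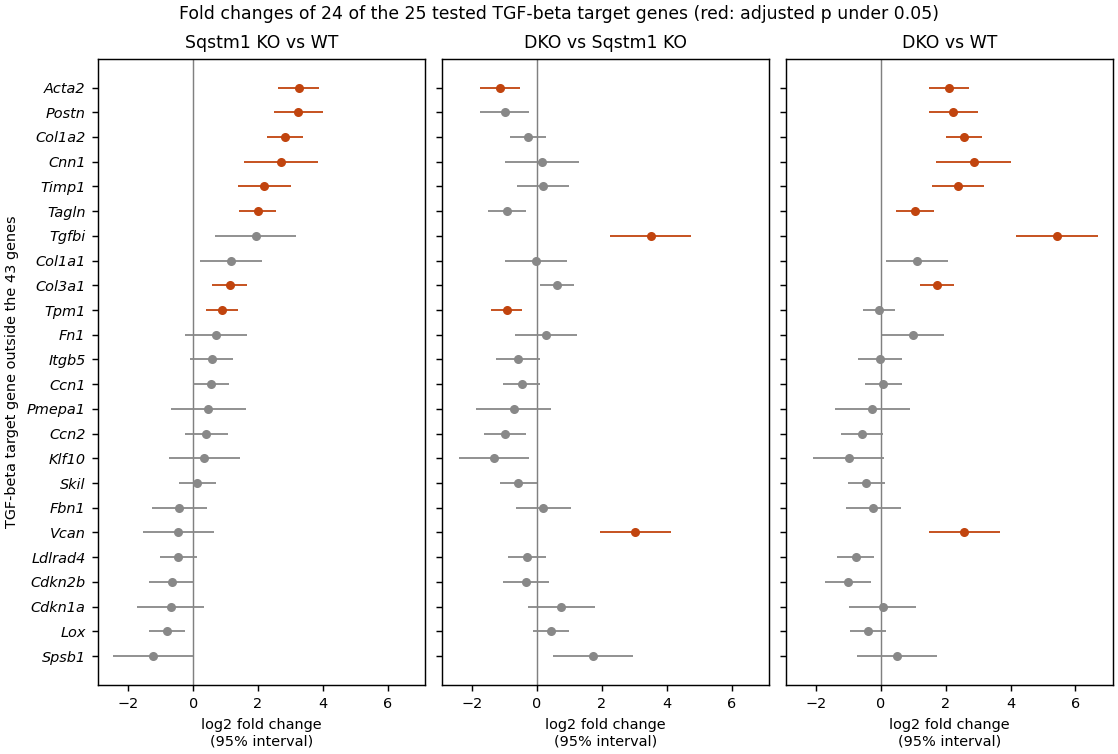
Log2 fold changes with 95% intervals of 24 of the 25 tested TGF-beta target genes outside the 43, in the 3 comparisons, with called genes in red and the order set by Sqstm1 KO against WT. In the left panel 8 genes are red and lie to the right of 0, and in the middle panel Tgfbi and Vcan lie at 3.50 and 3.03.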

How the data were processed

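RNA sequencing reads of 9 stellate cell libraries had been counted per gene by the authors. Their deposited signal values are gene read counts divided by 1 size factor per library. The submitters' processing notes name STAR, DESeq2 and the build GRCm39, while the sources used here give no version, kit, strandedness, annotation or gene filter. Every deposited value above 0 was a whole multiple of its library's smallest, within a tolerance of 0.01 (100% of 121126 values), so whole reads were recovered for the count tests.

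Log2(value + 1) was modelled with limma, using moderated variances and a trend of variance with mean. The test was two-sided, with all 9 libraries in 3 groups, no covariate, 6 residual degrees of freedom (14 after moderation) and Benjamini-Hochberg adjustment. Fold changes on this scale understate the change of low genes. With 3 libraries against 3, exact permutation reaches no p below 0.1, so it was not used. Each comparison ran over the 10118 genes that reached 10 in 3 or more libraries. The pseudocount was 1, and edgeR's quasi-likelihood test and DESeq2 were alternatives. Gene groups are given as counts and medians, with no test.

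Full statistics are given for genes called in at least 1 comparison, levels for the main ligand, receptor, antagonist, SMAD and ID genes, and up to 3 called genes a direction for each pathway list. Some genes are in the counts but are not reported by name here. The genes and lists were chosen with earlier results of these data known. Gene overlaps came from GENCODE M21, matched by symbol for 88.2% of genes, and promoters from RefSeq, both on the build GRCm38 and used for no coordinate of the deposited table. A group with no read was given a floor of 3 reads over its libraries, which covers counting error alone: the reads carry no stated molecular identifiers and may repeat molecules. The software was DESeq2 1.42.0, edgeR 4.0.16 and limma 3.58.1 in R 4.3.3. There were 0 unused sample columns.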

Additional observations from a re-analysis of the deposited data

How the results depend on the processing

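None of the 329 results of called signalling genes under the 21 alternatives changed direction, and 287 stayed under the threshold. Of 1615 such results that had no call in the main model, 17 gained one, all in the same direction. Alternatives that leave out a library rest on 2 libraries in 1 group, assumed to vary like the others. Depth limits the 11 genes under the filter and the low SMAD, ID and TGF-beta ligand genes.

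The main model called 568 genes for Sqstm1 KO against WT, 600 for DKO against Sqstm1 KO and 650 for DKO against WT. With each library left out in turn these counts ran from 226 to 651, 243 to 764 and 251 to 1409, and those of the signalling genes from 4 to 6, 4 to 6 and 1 to 8. A minimum value of 50, with fewer genes tested, gave 290, 291 and 360. Fitting only the 2 groups compared gave 352 for DKO against Sqstm1 KO and 1229 for DKO against WT, and the cause was not tested. Leaving out genes with an exon on the opposite strand, an alternative chosen after seeing the data, gave 417 for DKO against WT among 6493 genes. There 3 signalling genes were called in place of 5, because Eng and Ltbp2 were themselves left out. With no mean-variance trend 2 signalling genes were called there, and the cause was not tested.

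Among extracellular regulators, 1 in place of 2 genes was called for Sqstm1 KO against WT with only the 2 groups fitted and again, 1, with no trend. For DKO against WT the 1 became 2 with no filter and 3 with only the 2 groups. Among intracellular regulators, the 1 for Sqstm1 KO against WT became 0 with only the 2 groups and 0 with no trend. The 0 for DKO against Sqstm1 KO became 1 with DESeq2 and 1 with the minimum of 50, and the 0 for DKO against WT became 1 with only the 2 groups. Of TGF-beta targets, 2 in place of 4 were called for DKO against Sqstm1 KO with only the 2 groups, and 2 with no trend. Of BMP targets, no filter gave 3, 1 and 2 in the 3 comparisons, and no trend gave 0 for DKO against WT. Leaving out overlapping genes removed Hand2 itself and left 1 tested gene. Its 0 for both comparisons with WT therefore tells nothing of the Hand2 calls. With a library left out the lists gave 1 to 2, 0 to 4 and 1 to 4 for extracellular regulators, 0 to 1, 0 to 2 and 0 to 4 for intracellular ones, 6 to 11, 1 to 5 and 7 to 14 for TGF-beta targets, 1 to 1, 0 to 0 and 0 to 2 for BMP targets, and 0 to 0 for the other ligands and receptors.

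Replicate numbers are shared between the groups. Deviations of same-numbered libraries from their group means correlated at 0.06 to 0.18 (WT and Sqstm1 KO), -0.12 to 0.14 (WT and DKO) and 0.06 to 0.15 (Sqstm1 KO and DKO). Differently numbered libraries correlated at -0.21 to 0.12, -0.26 to 0.26 and -0.19 to 0.04. The ranges overlapped except for Sqstm1 KO and DKO, where every same-numbered value was the higher. No source states a pairing, so the main model had no block, and these correlations do not settle whether the libraries are paired. Not every library correlated best with its own number. With the replicate number as a block, 690, 672 and 754 genes and 7, 5 and 5 signalling genes were called, with Gdf11 gained in Sqstm1 KO against WT (adjusted p = 0.0361).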
